A study of Sus scrofa with 150 samples.

Results

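Livers of fat pigs whose meat lost little water were set against livers of lean pigs whose meat lost much water. The fat low-drip group held pigs with a fat area of at least 16.5 cm2 and a drip loss of at most 4.5%, and the lean high-drip group held pigs with a fat area of at most 13.5 cm2 and a drip loss of at least 6.5%. Of 150 pigs, 36 met these limits, 14 as fat low-drip and 22 as lean high-drip. The other 2 corners of the same limits, fat high-drip with 15 pigs and lean low-drip with 16, served as a comparison in which fat area differs in the same direction and drip loss in the opposite one. The remaining 83 pigs met the 2 limits of no corner together, though some lay beyond a limit in 1 trait. All pigs were of a commercial cross labelled Pix(DLxDE), had a mean end weight of 110 kg, received no treatment, and gave liver RNA at slaughter to 1 Affymetrix Porcine Genome Array each. The labels give no sex, age, family, slaughter day or array batch, and the groups were made here from the 2 labelled traits, so the pigs of a group share those traits and not a treatment.

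Fat area is the cross-section of fat lying on the loin muscle, a measure of carcass fatness. Drip loss is the share of its weight that a piece of that muscle loses on hanging, and it depends on how fast the muscle acidifies and how well its proteins hold water after death. The liver makes most of the animal's glucose between meals, breaks down amino acids, assembles and exports lipid, and secretes most plasma proteins. Liver tissue was sampled in bulk, so fewer cells of a type and less RNA per cell cannot be told apart.

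Fat area ran from 17.2 to 26.7 cm2 with a median of 18.85 cm2 in the fat low-drip pigs, and from 8.1 to 13.3 cm2 with a median of 12.0 cm2 in the lean high-drip pigs. Drip loss ran from 1.45 to 4.42% with a median of 3.365% in the fat low-drip pigs, and from 6.5 to 10.82% with a median of 7.555% in the lean high-drip pigs. Both traits set the groups apart by construction.

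**Figure D1:**
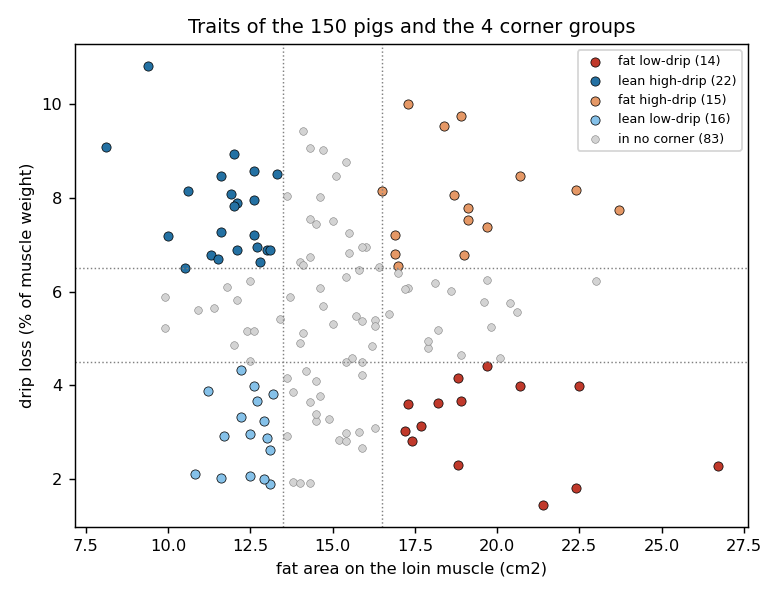
Fat area (x axis, cm2) against drip loss (y axis, % of muscle weight) of the 150 pigs, 1 point per pig, with the limits as dotted lines. The 14 fat low-drip pigs lie at the lower right and the 22 lean high-drip pigs at the upper left, and the 83 grey pigs lie in no corner.

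The arrays showed liver in every group. The mean log2 level of 8 hepatocyte genes, among them ALB, TTR and APOA1, ran from 13.27 to 13.52 in the fat low-drip livers and from 13.25 to 13.45 in the lean high-drip livers. Of 13 arrays that correlated less well with the others, 0 were fat low-drip, 2 lean high-drip, 1 fat high-drip and 0 lean low-drip, and the called genes are given below with and without them. The median of an array lay between 5.79 and 6.09 (log2) in all pigs and differed by 0.0009 between the groups (permutation p = 0.977). The difference between the 3′ and 5′ probe sets of beta-actin, a sign of RNA integrity, averaged 2.63 in the fat low-drip livers and 2.92 in the lean high-drip livers (SD 0.42 and 0.43, permutation p = 0.0537, adjusted p = 0.161 over 6 array measures). With this difference as a covariate 0 probe sets were called: CST3 differed by 0.33, QDPR by 0.52 and NIPSNAP1 by 0.29, each with an adjusted p of 0.162, and the fourth probe set called below by 0.69 (adjusted p = 0.0737). In fat high-drip and lean low-drip livers the actin difference averaged 2.99 and 2.55 (SD 0.39 and 0.42), so there the fat livers had the higher mean. The same difference for GAPDH averaged 1.00 and 0.74 there, against 0.93 and 0.98 in fat low-drip and lean high-drip livers. Neither was tested between fat high-drip and lean low-drip livers.

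Few transcripts told fat low-drip from lean high-drip livers. Of 23999 probe sets, 4 passed an adjusted p of 0.05 (limma, Benjamini-Hochberg), which is 0.0167% of those tested, and all 4 were higher in the fat low-drip livers. They stood for cystatin C (CST3), quinoid dihydropteridine reductase (QDPR), NIPSNAP1 and a transcript with no gene symbol. At an unadjusted p under 0.05 the count was 1301, of which 796 were higher and 505 lower. If nothing differed, a share of 0.05 of the 23999 would on average fall under this threshold. An adjusted p under 0.1 was reached by 13 probe sets. All 4 changes were smaller than 2-fold.

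CST3 encodes cystatin C, a secreted inhibitor of cysteine proteases such as the cathepsins. Its log2 level in the called probe set ran from 10.46 to 11.13 with a median of 10.79 in the 14 fat low-drip livers, and from 10.15 to 10.72 with a median of 10.44 in the 22 lean high-drip livers. The groups overlapped, but 8 of the 14 fat low-drip livers lay above the highest lean high-drip liver and all 14 lay above the lean high-drip median. The difference was 0.37 on the log2 scale (SE 0.07), a 1.29-fold higher level, with an adjusted p of 0.0379. The other probe sets of CST3 on the array differed by 0.39 and 0.33, with adjusted p of 0.104 and 0.124, so all 3 had the same sign and only 1 passed.

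QDPR encodes the enzyme that regenerates tetrahydrobiopterin, the cofactor with which the liver hydroxylates phenylalanine. Its level ran from 10.36 to 11.11 with a median of 10.585 in the fat low-drip livers, and from 8.38 to 10.61 with a median of 10.105 in the lean high-drip livers. All 14 fat low-drip livers lay above the lean high-drip median, and 16 of the 22 lean high-drip livers lay below the lowest fat low-drip liver. The difference was 0.57 (SE 0.12), a 1.48-fold higher level, with an adjusted p of 0.0441. The second QDPR probe set differed by 0.48, with an adjusted p of 0.0969. Without the arrays that stood apart the difference was 0.47, with an adjusted p of 0.0239.

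NIPSNAP1 encodes a mitochondrial protein. Its level ran from 10.39 to 10.99 with a median of 10.58 in the fat low-drip livers, and from 9.77 to 10.68 with a median of 10.27 in the lean high-drip livers. The 2 groups overlapped, with all 14 fat low-drip livers above the lean high-drip median and 16 of 22 lean high-drip livers below the lowest fat low-drip liver. The difference was 0.31 (SE 0.063), a 1.24-fold higher level, with an adjusted p of 0.0441, and without the arrays that stood apart it was 0.28 with an adjusted p of 0.059, which no longer passed.

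The called probe set without a gene symbol, Ssc.14081.1.A1_at, ran from 4.73 to 6.71 with a median of 5.415 in the fat low-drip livers, and from 4.09 to 5.5 with a median of 5.105 in the lean high-drip livers. The fat low-drip livers were split, with 7 of 14 above every lean high-drip liver and the others within the lean high-drip range. The lowest of these 7, at 5.52, lay just above the lean high-drip maximum. High levels were not particular to this group, with values up to 6.17 in fat high-drip livers and 6.68 in pigs of no corner. The difference was 0.66 (SE 0.13), a 1.58-fold higher level, with an adjusted p of 0.0434, at levels near the floor of the deposited values, 4.09. In a limma fit on normal scores, which keep only the ranks of the values, its adjusted p was 0.771. Without the arrays that stood apart CST3 differed by 0.37 (adjusted p = 0.0307) and this probe set by 0.66 (adjusted p = 0.0307).

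**Figure D2:**
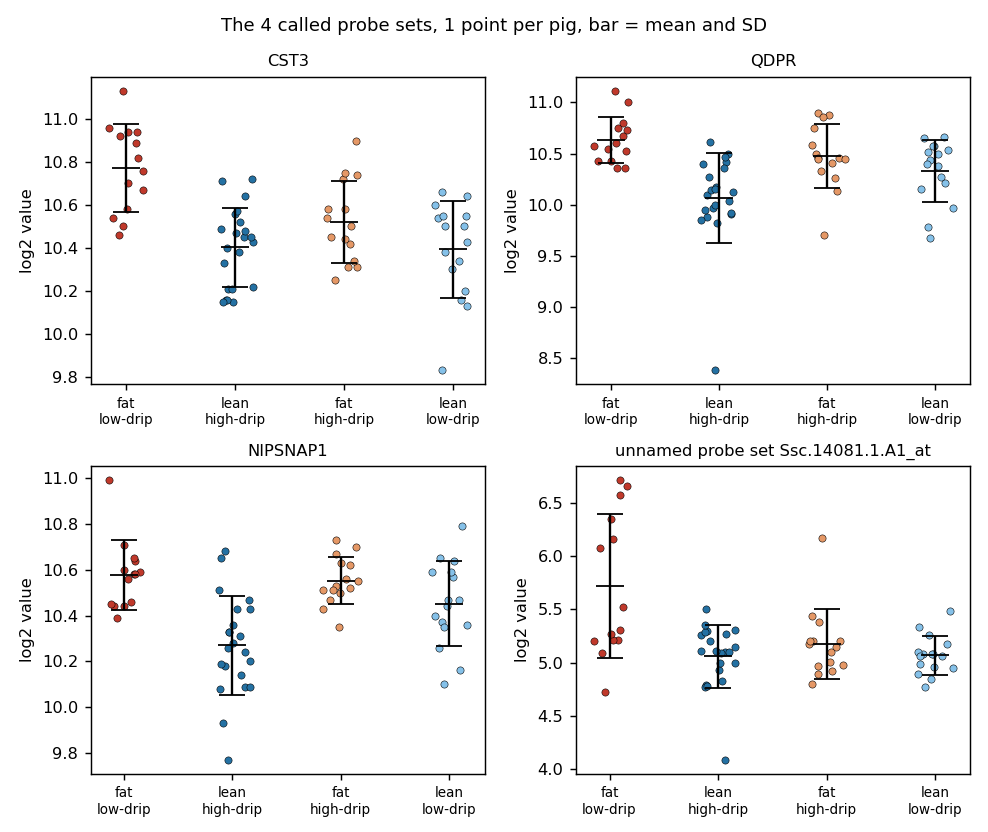
Log2 level (y axis) of the 4 called probe sets in the livers of each corner group, 1 point per pig, with the bar showing the mean and SD. The fat low-drip livers have the highest mean in all 4 panels, and in the panel without a gene symbol 7 of the 14 lie above every lean high-drip liver.

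The calls depended on single pigs. When each of the 36 pigs was left out in turn, CST3 stayed called in 28 fits, the unnamed probe set in 25, QDPR in 18 and NIPSNAP1 in 17, with differences of 0.34 to 0.39 for CST3, 0.58 to 0.73 for the unnamed probe set, 0.49 to 0.60 for QDPR and 0.27 to 0.33 for NIPSNAP1. CST3 lost its call without any 1 of fat low-drip replicates 8, 9, 10, 11 and 12 or lean high-drip replicates 4, 16 and 21, with a largest adjusted p of 0.109. A limma fit with only the 36 pigs called 0 probe sets, with a smallest adjusted p of 0.111 and 1211 at an unadjusted p under 0.05.

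CST3 averaged 10.77 in fat low-drip, 10.52 in fat high-drip and 10.39 in lean low-drip livers, against 10.40 in lean high-drip livers, and the unnamed probe set averaged 5.72, 5.17 and 5.07, against 5.06. The unnamed probe set thus had means near the lean high-drip level in both mixed corners, and CST3 did in lean low-drip livers, while its fat high-drip mean lay between the fat low-drip and lean high-drip means. QDPR averaged 10.63, 10.47 and 10.33, against 10.07, and NIPSNAP1 averaged 10.58, 10.55 and 10.45, against 10.27, so these 2 had means in the mixed corners between the fat low-drip and lean high-drip means. The test of whether the effect of fat area differs between low and high drip loss gave an adjusted p of 0.298 for CST3, 0.251 for the unnamed probe set, 0.864 for QDPR and 0.526 for NIPSNAP1, and 0 of 23999 probe sets (0%) passed it, with 2770 at an unadjusted p under 0.05.

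Between fat high-drip and lean low-drip livers, a comparison that shares no pig with the first, 1 probe set (0.00417%) passed. It had no gene symbol (Ssc.30436.1.A1_at), and differed by 0.75 there (adjusted p = 0.0123) and by 0.30 between fat low-drip and lean high-drip livers (unadjusted p = 0.0235). The 4 called probe sets differed by 0.13 (CST3), 0.10 (unnamed), 0.15 (QDPR) and 0.10 (NIPSNAP1) between fat high-drip and lean low-drip livers, and none of the 4 passed there. Comparisons of fat low-drip livers with fat high-drip livers and with lean low-drip livers gave 0 calls each (0%), with smallest adjusted p of 0.506 and 0.0636, and 2210 and 1814 probe sets at an unadjusted p under 0.05. Of those at 0.0636, CST3 was 0.38 and SCNN1B 0.53 higher in fat low-drip than in lean low-drip livers. Lean low-drip against lean high-drip livers gave 0 calls (0%), with 2567 at an unadjusted p under 0.05.

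Fat high-drip against lean high-drip livers gave the most calls, 43 (0.179%), with 19 higher and 24 lower. EIF1AY, a Y-linked gene described below, was among them, 1.39 higher (adjusted p = 0.0414), and stood at a high level in 12 of 15 fat high-drip and 5 of 22 lean high-drip pigs. With EIF1AY as a covariate 0 probe sets were called in this comparison, and with the mean of the Y-linked genes 3 probe sets were called. Among the 43 called without a covariate was NIPSNAP1, 0.28 higher (adjusted p = 0.0358). Also among those 43 was SLC25A33, a mitochondrial carrier of pyrimidine nucleotides, 0.91 lower (adjusted p = 0.0468). SLC25A33 was 0.68 lower in fat low-drip than in lean high-drip livers without passing (adjusted p = 0.614). Both comparisons contain the lean high-drip pigs, so their values are not independent.

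Fat area and drip loss were also fitted as slopes over the pigs outside both groups. Of these, 83 took no part in the calls, while the 31 pigs of the mixed corners were in the fit that made the calls and contributed to its residual spread. In a fit of both traits, the called CST3 probe set had a slope of 0.065 per SD of fat area (SE 0.023, unadjusted p = 0.00529). Its slope per SD of drip loss was -0.046 (SE 0.023, unadjusted p = 0.048). Both had the same directions as between the groups. The other CST3 probe sets had fat area slopes of 0.060 and 0.080 (unadjusted p = 0.0164 and 0.00671). Their drip loss slopes were -0.038 and -0.051 (unadjusted p = 0.121 and 0.079). QDPR had slopes of 0.051 and -0.027 (unadjusted p = 0.131 and 0.423), and NIPSNAP1 of 0.044 and -0.021 (unadjusted p = 0.0569 and 0.359). The unnamed probe set had slopes of -0.026 and 0.064 (unadjusted p = 0.567 and 0.161), opposite in sign to the difference between the groups. Over all 23999 probe sets 0 passed an adjusted p of 0.05 for fat area or for drip loss in these pigs, with 1456 and 3227 at an unadjusted p under 0.05.

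Over the 83 pigs in no corner the 3 named genes varied together, and how common such correlations are among other genes was not tested. QDPR and NIPSNAP1 correlated at r = 0.553 (permutation p = 1e-05, the smallest that 100000 resamples can give, adjusted p = 3e-05 over 6 pairs; rho = 0.549, permutation p = 1e-05). CST3 and QDPR correlated at r = 0.505 (permutation p = 1e-05, adjusted p = 3e-05; rho = 0.422, permutation p = 8e-05), and CST3 and NIPSNAP1 at r = 0.441 (permutation p = 3e-05, adjusted p = 6e-05; rho = 0.47, permutation p = 1e-05). Leaving out the 2 pigs most extreme in the first gene of a pair gave r of 0.524, 0.465 and 0.364. For the unnamed probe set with each of the 3, r lay between -0.076 and 0.022 (permutation p of 0.494 to 0.95).

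The groups also held unequal shares of pigs with a high level of a Y-linked gene, and the labels give no sex. EIF1AY, the Y-chromosome copy of a translation initiation factor, ran from 4.09 to 7.49 with a median of 6.12 in the fat low-drip livers, and from 4.09 to 6.58 with a median of 4.255 in the lean high-drip livers. Over all 150 pigs no value fell between 4.72 and 5.64, and the pigs above this gap numbered 12 of 14 fat low-drip, 5 of 22 lean high-drip, 12 of 15 fat high-drip and 3 of 16 lean low-drip pigs. The difference was 1.38 (SE 0.32, adjusted p = 0.0969). The 2 Y-linked genes measured had a mean that differed by 0.67 (permutation p = 0.00028, adjusted p = 0.00168). SRY, the other one, differed by -0.04. In both fat corners most pigs stood above the gap, and in both lean corners most stood below it.

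Several of the largest differences moved with EIF1AY over the 83 pigs in no corner. The unnamed probe sets Ssc.27304.1.S1_at, higher by 2.93, and Ssc.16426.1.S1_at, higher by 2.33, correlated with it at r = 0.944 and 0.968, and neither passed (adjusted p = 0.0736 each). With EIF1AY as a covariate their differences were 0.34 and 0.20. The unnamed probe set Ssc.7473.1.A1_at, higher by 2.02 (r = 0.985, adjusted p = 0.087), differed by 0.11 with the covariate. In the lower direction the unnamed Ssc.31029.1.A1_at differed by -2.78 (r = -0.919) and Ssc.13426.1.A1_at by -2.48 (r = -0.89), with an adjusted p of 0.0969 each, and with the covariate they differed by -0.33 and -0.26. LOC396706 was 0.43 higher without the covariate and 0.10 with it, and its other probe set differed by 0.023 without it. KDM6A, an X-linked histone demethylase, was 0.41 lower without the covariate and 0.11 lower with it.

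The 4 called probe sets correlated only weakly with EIF1AY. Over the same 83 pigs r was 0.14 (CST3), 0.08 (unnamed), 0.10 (QDPR) and 0.09 (NIPSNAP1). With EIF1AY as a covariate the differences were 0.38 (CST3, unadjusted p = 1.3e-05), 0.72 (unnamed, unadjusted p = 7.25e-06), 0.48 (QDPR, unadjusted p = 0.000441) and 0.31 (NIPSNAP1, unadjusted p = 4.47e-05). The sizes for CST3 and NIPSNAP1 were thus near those without it. That of the unnamed probe set was larger (0.72 against 0.66). That of QDPR was smaller (0.48 against 0.57, unadjusted p = 6.24e-06 without it). After adjustment 0 probe sets passed, with a smallest adjusted p of 0.156 and 1303 at an unadjusted p under 0.05. Among pigs above the gap CST3 averaged 10.78 in 12 fat low-drip livers and 10.43 in 5 lean high-drip livers (SD 0.20 and 0.16). Among pigs below it CST3 averaged 10.74 in 2 and 10.40 in 17 (SD 0.28 and 0.19). QDPR averaged 10.63 and 10.11 in these groups above the gap, and 10.68 and 10.05 below it. In fat high-drip livers QDPR averaged 10.55 in 12 above the gap and 10.19 in 3 below it (SD 0.25 and 0.42). In lean low-drip livers it averaged 10.58 in 3 above and 10.27 in 13 below (SD 0.06 and 0.31).

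**Figure D3:**
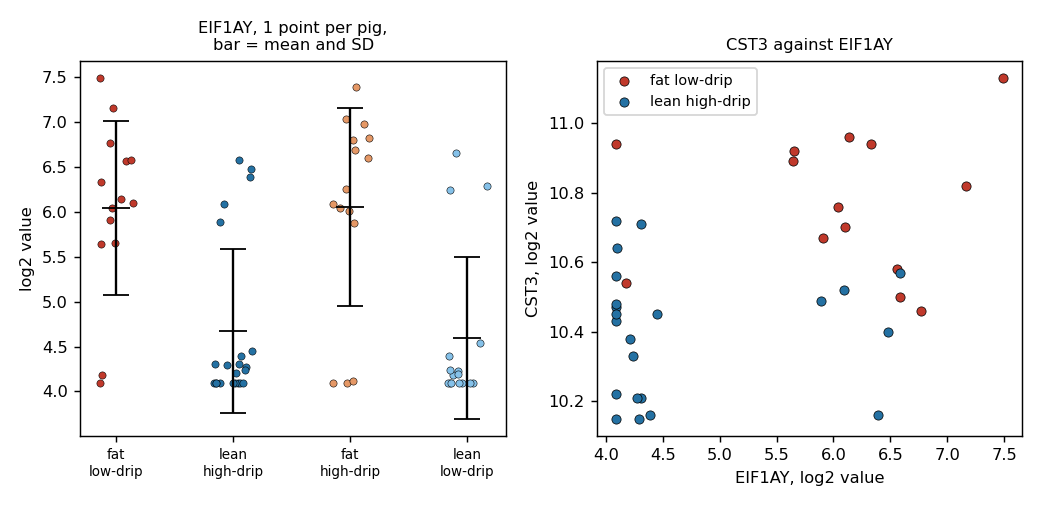
Left, log2 level of EIF1AY in each corner group, 1 point per pig, bar showing mean and SD. Right, CST3 (y axis) against EIF1AY (x axis), both as log2 levels, in fat low-drip and lean high-drip livers. The fat low-drip livers lie mostly to the right of the gap between 4.72 and 5.64. Their mean CST3 is higher on both sides of it, with overlapping ranges and only 2 fat low-drip livers to its left.

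Among the named genes that were higher without passing were SCNN1B, the beta subunit of the epithelial sodium channel, and ALAD, an enzyme of haem synthesis. SCNN1B ran from 5.37 to 6.95 with a median of 6.06 in the fat low-drip livers, and from 4.8 to 5.97 with a median of 5.655 in the lean high-drip livers, a difference of 0.47 (adjusted p = 0.0736). It lay above the highest lean high-drip liver in 10 of 14 fat low-drip livers. MCRIP2 differed by 0.50 (adjusted p = 0.0969), ALAD by 0.36 (0.195), LYPD6 by 0.38 (0.242) and RHBDD2 by 0.40 (0.242). PRKCZ, an atypical protein kinase C, differed by 0.33 (0.282) and PRKD2, a protein kinase D, by 0.42 (0.303), where each bracket holds the adjusted p. These values are of each gene's probe set of smallest p. A brighter MCRIP2 probe set had the opposite sign, at -0.055 (unadjusted p = 0.614). The other PRKCZ probe sets differed by 0.047 and 0.27, and those of RHBDD2 by 0.17, 0.36 and 0.16. LYPD6 averaged 4.85 over all pigs, near the floor.

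No probe set passed in the lower direction, and the 12 genes with a symbol of smallest p had adjusted p from 0.495 to 0.614. ARNTL, the clock activator also called BMAL1, differed by -0.63, and CDKN1A, the cell cycle inhibitor p21, by -0.60. CRELD2, which is induced by endoplasmic reticulum stress, differed by -0.53, ALDH18A1, an enzyme of proline synthesis, by -0.42, and ANXA5, a phosphatidylserine-binding protein, by -0.46. LYN, a Src-family kinase, differed by -0.43, ANKRD10 by -0.30, TES by -0.27, ZRSR2, a splicing factor, by -0.22 and CD180, a B-cell surface receptor, by -0.20. The probe sets of CD180, ZRSR2 and TES averaged 4.44, 4.52 and 4.78 over all pigs, near the floor. With EIF1AY as a covariate ZRSR2 differed by -0.13 and ANKRD10 by -0.15, while TES differed by -0.33, CD180 by -0.23 and ANXA5 by -0.59.

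**Figure D4:**
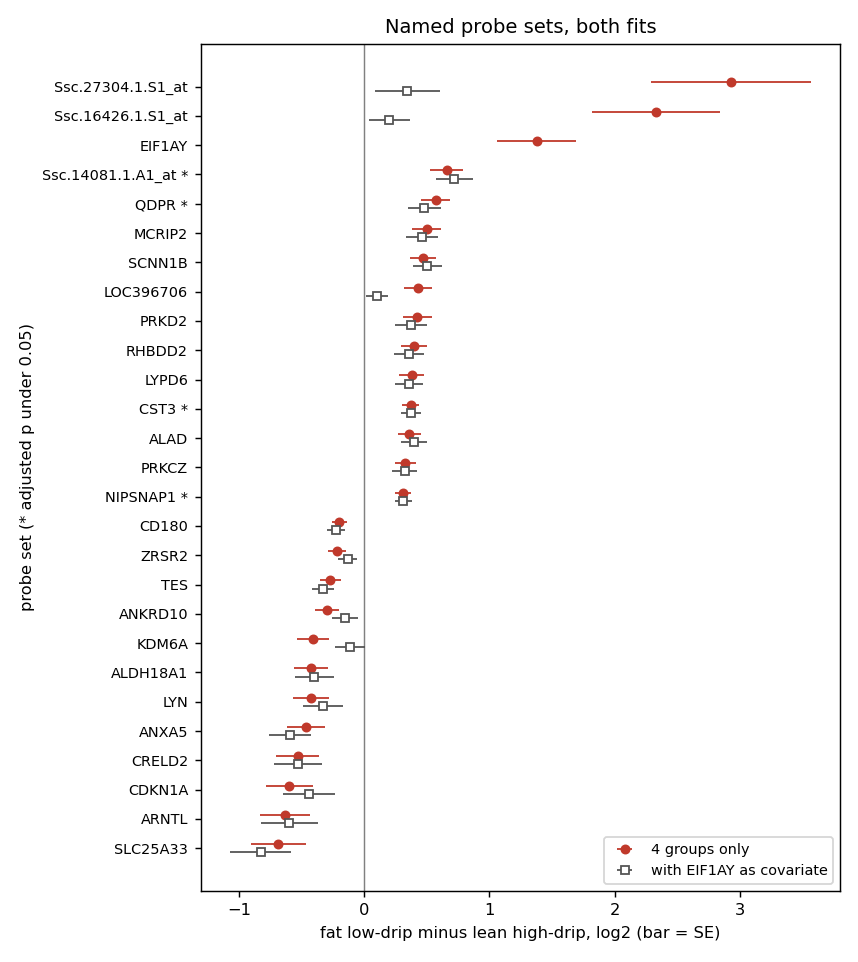
Difference between fat low-drip and lean high-drip livers (x axis, log2, bar = SE) of the named probe sets, without (circles) and with (squares) EIF1AY as a covariate. The called probe sets, marked by an asterisk, lie between 0.31 and 0.66 without it and between 0.31 and 0.72 with it, while Ssc.27304.1.S1_at drops to 0.34 and Ssc.16426.1.S1_at to 0.20.

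Gene lists are given by counts and medians over each gene's brightest probe set. Of all 6765 genes with a symbol, 3502 had a positive difference and 3263 a negative one. At an unadjusted p under 0.05, 3.86% were higher and 2.26% lower, and the median difference was 0.0038. In the comparison of fat high-drip with lean low-drip livers these shares were 6.28% and 5.79%. Between fat low-drip and lean high-drip livers 0 list members passed after adjustment.

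Enzymes that break down amino acids and make urea had the highest median of the metabolic lists. All 19 measured genes had a positive difference, 6 of them at an unadjusted p under 0.05 and 0 in the lower direction, with a median of 0.20. The mean level of the list had a median over pigs of 10.67 in the fat low-drip livers and 10.48 in the lean high-drip livers, and the ranges overlapped. GPT, alanine aminotransferase, differed by 0.41, ASL, the argininosuccinate lyase of the urea cycle, by 0.39 and FAH, the last enzyme of tyrosine breakdown, by 0.24, with adjusted p of 0.523, 0.614 and 0.614. Between fat high-drip and lean low-drip livers the median was 0.24 and 18 of 19 were positive, and with EIF1AY as a covariate the first median was 0.18. Some other lists given below moved more with this covariate. The median of cholesterol synthesis went from -0.12 to 0.08, of interferon response from -0.09 to -0.37 and of heat shock chaperones from -0.06 to -0.21. Those of immediate early genes and endoplasmic reticulum chaperones went from -0.28 to -0.33 and stayed at -0.21.

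Lists of genes that answer stress or a stimulus had negative medians. Of 17 immediate early genes, which are switched on within minutes of a stimulus, 1 was positive and 6 were lower at an unadjusted p under 0.05, with a median of -0.28, against -0.43 between fat high-drip and lean low-drip livers. IER5 differed by -0.40, BTG2 by -0.52 and KLF10 by -0.42. Of 16 endoplasmic reticulum chaperones and stress genes, which fold secreted proteins, 0 were positive and 4 were lower at an unadjusted p under 0.05, with a median of -0.21, against -0.12. DNAJB11 differed by -0.32 and PDIA4 by -0.25. Of 14 genes of amino acid synthesis under the transcription factor ATF4, 3 were lower and 0 higher at that threshold, with a median of -0.08, against -0.16, and ASNS, asparagine synthetase, differed by -0.40. ATF3 belongs to both the immediate early and the ATF4 list and differed by -0.60, with values up to 10.95 in 1 lean high-drip liver.

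Lists of metabolism had smaller medians. Of 27 genes of xenobiotic metabolism 24 were positive and 3 higher at an unadjusted p under 0.05, with a median of 0.10, against 0.0047 between fat high-drip and lean low-drip livers. CYP1A1, a cytochrome P450 induced through the aryl hydrocarbon receptor, had a median of 9.245 in the fat low-drip livers and 8.32 in the lean high-drip livers and differed by 1.11 (adjusted p = 0.416). NQO1 differed by 0.59 and POR, the reductase that feeds electrons to cytochromes P450, by 0.25. Of 27 subunits of oxidative phosphorylation 22 were positive and 1 higher at that threshold, with a median of 0.08, and NDUFB8 differed by 0.20. Between fat high-drip and lean low-drip livers 11 of these 27 were positive, with a median of -0.02.

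The lipid lists had medians between -0.12 and 0.07. Of 17 genes of fatty acid and triglyceride synthesis 10 were positive, with a median of 0.06, and AGPAT2 and DGAT2, which add acyl chains in triglyceride assembly, each differed by 0.35 (adjusted p = 0.486 and 0.614). Of 21 genes of fatty acid oxidation 14 were positive, with a median of 0.05, and ECI1 differed by 0.17 and HADH by 0.16. Of 9 genes of cholesterol synthesis 2 were positive, with a median of -0.12, and 7 of 7 bile acid genes were positive, with a median of 0.07 and 0 at an unadjusted p under 0.05. The 16 lipoprotein genes had a median of 0.03. Between fat high-drip and lean low-drip livers 7 of the 17 genes of fatty acid and triglyceride synthesis were positive, with a median of -0.04. The other medians there were 0.08 for fatty acid oxidation, -0.09 for cholesterol synthesis, 0.09 for bile acid genes and 0.0039 for lipoprotein genes.

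**Figure D5:**
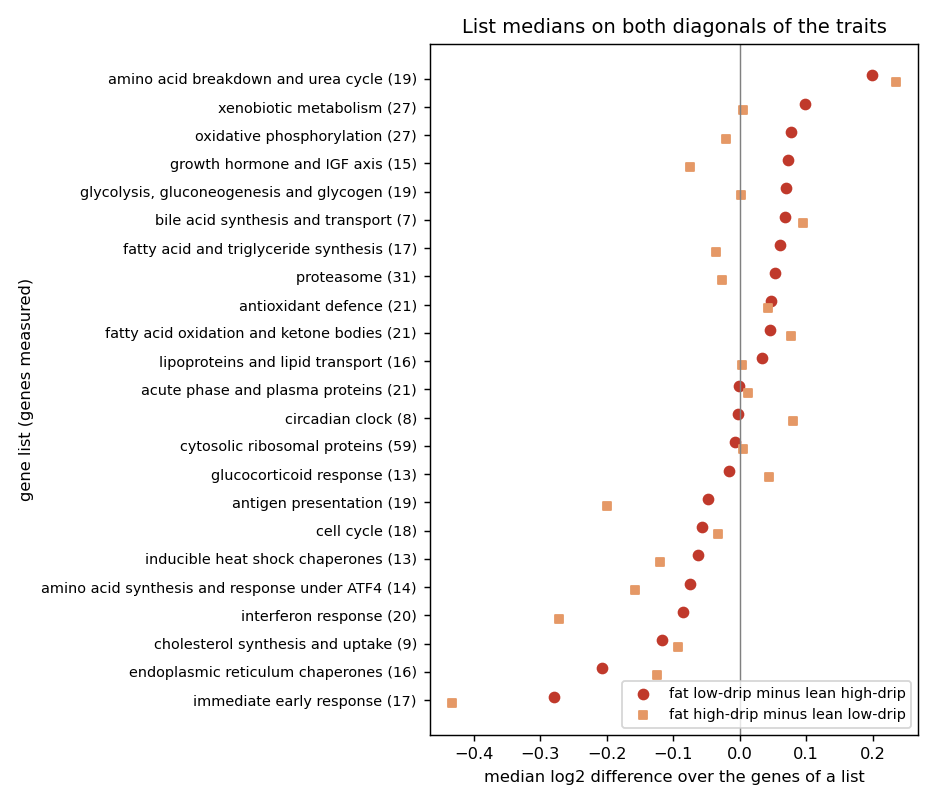
Median log2 difference (x axis) of each pathway and response list, with cell type and Y-linked lists not drawn, for fat low-drip minus lean high-drip livers (circles) and fat high-drip minus lean low-drip livers (squares), with the number of genes in brackets. Of the lists drawn, that of amino acid breakdown and urea cycle lies highest in both, at 0.20 and 0.24, and the immediate early list lowest in both, at -0.28 and -0.43.

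The clock genes, whose levels cycle over the day in different phases, included members of both signs. DBP, a clock output factor, ran from 7.07 to 9.07 with a median of 8.33 in the fat low-drip livers, and from 6.06 to 8.86 with a median of 7.61 in the lean high-drip livers. Its difference of 0.73 did not pass (adjusted p = 0.369), nor did those of ARNTL given above or of NFIL3, a repressor that opposes DBP, at -0.40. Slaughter times are not among the labels used here.

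Lists of immune genes and immune cells had medians between -0.18 and 0.0011. Of 20 interferon-response genes 4 were positive, with a median of -0.09, against -0.27 between fat high-drip and lean low-drip livers, and IRF1 differed by -0.29. Of 19 antigen presentation genes 7 were positive, with a median of -0.05. Among 21 acute phase and plasma protein genes 10 were positive, with a median of -0.0004, and CRP, an acute phase protein, differed by -0.49 and FGG, a fibrinogen chain, by -0.14. The 8 macrophage genes had a median of 0.0011, the 10 T and NK cell genes of -0.02 and the 3 B and plasma cell genes of -0.18, where JCHAIN differed by -0.43.

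Markers of muscle, fat tissue and pancreas were examined as signs of other tissue in the samples, and their part in the results was not tested. The 10 skeletal muscle genes had a mean level from 5.07 to 5.66 in the fat low-drip livers and from 4.78 to 5.54 in the lean high-drip livers. Of these genes 9 were positive and 1 was higher at an unadjusted p under 0.05, with a median difference of 0.04. CA3, a carbonic anhydrase that liver also makes, differed by 0.89 (adjusted p = 0.828). MYH2 averaged 4.16 and MYLPF 4.51 over all pigs, near the floor, but the mean over the 10 genes lay above these levels in every corner group. The 6 adipocyte genes were all positive with a median of 0.06 and 0 at an unadjusted p under 0.05, and the 5 exocrine pancreas genes had a median of 0.05. The lists of heat shock chaperones, antioxidant defence, glycolysis, glucocorticoid response, growth hormone axis, proteasome, ribosomal proteins and cell cycle had medians between -0.06 and 0.07.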

How the data were processed

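Liver RNA of 150 pigs was hybridised to 1 array each. The authors deposited 1 log2 value per probe set and pig, with the scale inferred from the range of the values. Per the submitters' processing notes the software was GCOS 1.1.1. No source used here says how probes were summarised and normalized. The floor was 4.09, and 2.75% of values lay on it. Groups came from the labelled fat area and drip loss. The limits, lists and named genes were chosen with earlier results of these data known. Of 24123 probe sets 124 controls were left out. Symbols came from the platform annotation, matched through Entrez IDs to the RefSeq gene table of Sscrofa11.1: 10069 probe sets had 1 symbol, 198 several and 13732 none.

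The 67 corner pigs were fitted in limma 3.58.1 (lmFit, eBayes with trend; R 4.3.3) with 1 coefficient per group, and 7 contrasts were tested two-sided over 23999 probe sets at a Benjamini-Hochberg adjusted p under 0.05. Per direction, 12 genes were named in the first comparison and 3 in the others, up to 3 per list, and 3 probe sets without a symbol. MYH2, MYLPF, SRY, the probe set called between fat high-drip and lean low-drip livers and 3 other unnamed probe sets that correlate with EIF1AY lie outside this rule and were named after their values were seen. Correlations and array measures had permutation tests of 100000 resamples. Whether replicates were separate extractions is not given, and pigs count as the replicates. An array stood apart at 3 median absolute deviations below the median correlation. Tested on simulated data of the 23999 probe sets with 200 shifted in the first comparison, the fit recovered 4.5% at 1 SD, 74% at 1.5 SD and 98.5% at 2 SD. Wrong calls numbered 0 of 9, 8 of 156 and 16 of 213. The simulated noise was normal and independent between probe sets, unlike the real values, so these shares need not hold for the real arrays. The number of arrays limits the precision. Alternatives were other normalizations, filters, eBayes settings, covariates, limits and thresholds, and EIF1AY as a covariate and both traits over the pigs outside the groups were added after seeing the data. Sequences were not used here.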

Additional observations from a re-analysis of the deposited data

How the results depend on the processing

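No paired analysis was possible because the pigs' numbers were given in order and pair no animals. Between fat low-drip and lean high-drip livers, 4 probe sets were called. The count was 16 with the array median as a covariate, 13 at an adjusted p under 0.1, 11 with 5 principal components and 10 without the arrays that stood apart. It was 2 with all 150 pigs in the fit, 2 when a difference of 0.5 was also asked, and 1 each under quantile normalization, for probe sets with an SD above 0.25, under stricter limits and for the slope on fat area minus drip loss over 150 pigs. It was 0 with only the 2 groups, normal scores, looser limits, EIF1AY, the Y-linked mean or the actin difference as a covariate, and for the slope over the pigs outside the 2 groups. Leaving out 1 pig gave 0 to 13 calls, with 0 without fat low-drip replicates 8, 9, 11 and 12 or lean high-drip replicates 4, 16 and 21, and 13 without fat low-drip replicate 3. The cause was not tested. Outside the slope over the outside pigs, all 4 called probe sets kept their direction under every alternative run. The slopes over 150 pigs, on the scale of standardised fat area minus drip loss, were 0.062 for CST3, 0.088 for QDPR, 0.049 for NIPSNAP1 and 0.071 for the unnamed probe set. The other alternatives gave differences with CST3 between 0.23 and 0.55, QDPR between 0.32 and 0.58, NIPSNAP1 between 0.17 and 0.33 and the unnamed probe set between 0.35 and 0.96 on the log2 scale (normal scores left out). The stricter limits left 8 fat low-drip and 10 lean high-drip pigs, the looser ones 25 and 32.

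In the slope over the outside pigs, per unit of standardised fat area minus drip loss, the sign turned for Ssc.14081.1.A1_at (-0.053), SCNN1B (-0.021), LYPD6 (-0.059), HADH (-0.0030), CD180 (0.0046), CDKN1A (0.0090), CRELD2 (0.041), ANKRD10 (0.0029), PDIA4 (0.033), CRP (0.080), IRF1 (0.052), BIRC5 (0.018) and CD2 (0.0019). BIRC5 and CD2 differed by -0.28 and -0.24 between the groups.

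Between fat high-drip and lean low-drip livers 1 was called, against 257 with array weights, 12 with 5 principal components, 7 without the arrays that stood apart, 6 with the actin difference, 4 at an adjusted p under 0.1, and 0 with brighter probe sets, only the 2 groups, normal scores, looser limits, EIF1AY or the Y-linked mean. Between fat high-drip and lean high-drip livers 43 were called, against 298 at an adjusted p under 0.1, 94 with brighter probe sets, 86 with array weights, 79 with an SD above 0.25, 28 under stricter limits, 24 with a difference of 0.5, 6 with the array median, 4 with only the 2 groups, 4 with 5 principal components, 3 with the Y-linked mean, 1 with normal scores and 0 with EIF1AY or looser limits. Between fat low-drip and lean low-drip livers 0 were called, against 11 with 5 principal components or at an adjusted p under 0.1, 6 with an SD above 0.25, without the arrays that stood apart or with the array median, 4 with array weights or the actin difference, 3 with the title number or looser limits, 2 with quantile normalization or brighter probe sets, and 1 with only the 2 groups or stricter limits. Between lean low-drip and lean high-drip livers 0 were called, against 38 with array weights, 13 with the array median, 11 with brighter probe sets or at an adjusted p under 0.1, 10 with an SD above 0.25, 9 with EIF1AY or the Y-linked mean, 6 with quantile normalization, 2 with only the 2 groups or all 150 pigs, and 1 under stricter limits. Stricter limits gave 15 calls between fat low-drip and fat high-drip livers, against 0. The interaction had 0 calls, against 23 with array weights and 3 under stricter limits.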

Other observations

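Genes of smallest p in the other comparisons were set beside the fat low-drip livers. ID3, ESAM and NECTIN2 were 0.47, 0.58 and 0.40 higher in fat low-drip than in fat high-drip livers, and MTCH1 was 0.44 higher in fat low-drip than in lean low-drip livers; none of the 4 passed. ATIC, an enzyme of purine synthesis, differed by 0.64 between lean low-drip and lean high-drip livers and by 0.35 between fat low-drip and lean high-drip livers, and neither passed. B2M, the light chain of class I antigen presentation, was 0.58 lower in fat high-drip than in lean high-drip livers (adjusted p = 0.0265), and differed by -0.20 between fat low-drip and lean high-drip livers.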
